A study of Mus musculus with 4 samples.

Results

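Oxidative phosphorylation is carried out by 5 protein complexes of the inner mitochondrial membrane, and this account covers the nuclear genes for their subunits on liver arrays. The members were all non-control probes whose gene name in the files starts with Nduf, Uqcr, Atp5 or Cox4 to Cox8, or is Sdha, Sdhb, Sdhc, Sdhd or Cycs. These were 123 of 41174 probes, for 86 gene names. The prefixes also took in 8 probes of 5 genes that are not subunits (Ndufaf1, Ndufaf2, Cox4nb, Atp5s and Atp5sl), which left 115 subunit probes of 81 genes.

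Livers of 4 female BALB/c mice were measured, each on 1 single-dye (Cy3) Agilent array with probes of 60 bases. The 2 mice of the group labelled LB1 and the 2 control mice were killed 20 days after inoculation, in a study that gave mice a Lactobacillus strain taken from ostriches and followed their weight, gut flora and metabolism. What LB1 stands for and what the control mice received are not given in the sources used here. The mice carry no stated genetic change, and their age is not given in the sources used here.

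In the respiratory chain, complex I takes electrons from NADH and complex II (succinate dehydrogenase, which is also an enzyme of the citric acid cycle) takes them from succinate. Both pass them through ubiquinone to complex III, and cytochrome c carries them on to complex IV, which reduces oxygen. The proton gradient built on the way drives complex V, the ATP synthase. Hepatocytes are rich in mitochondria, and complex II is the only one of the complexes whose subunits are all encoded in the nucleus.

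The probes of 2 genes are shown first, because probes along one transcript gave different LB1 minus control differences in both. The differences between probes were not tested, and the last Atp5b probe was saturated on both control arrays. Each line gives the gene and the position in its transcript record at which the probe starts, and the sequence runs 5′ to 3′ as deposited. Atp5b encodes the catalytic beta subunit of ATP synthase. Its probes lie at chr10:127521478-127522156 (across an intron), chr10:127522569-127522628 and chr10:127527255-127527314 of mm9, on the plus strand. Of the last, the first 30 bases are given.
Atp5b at 455: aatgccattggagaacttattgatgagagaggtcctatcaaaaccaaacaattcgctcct
Atp5b at 698: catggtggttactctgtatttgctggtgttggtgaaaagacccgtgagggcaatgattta
Atp5b at 1689: acaagagccttgattgaagatgtgatgttc
Ndufa12 encodes a supernumerary subunit of complex I. Its probes lie at chr10:93662720-93666034, chr10:93662740-93666054 (both across an intron) and chr10:93683562-93683621 of mm9, on the plus strand. Capitals mark the 40 bases that the first and the second share, so these are not independent readings, and the first 30 bases of the third are given.
Ndufa12 at 147: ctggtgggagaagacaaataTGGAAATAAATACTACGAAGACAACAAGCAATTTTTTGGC
Ndufa12 at 167: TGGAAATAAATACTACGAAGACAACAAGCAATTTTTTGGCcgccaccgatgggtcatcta
Ndufa12 at 429: aagaagattcatgaatgggttccacctttg

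The LB1 arrays were dimmer than the control arrays. The array's 75th percentile was 410.9 and 414.7 in control and 146.9 and 80.8 in LB1, and saturated spots numbered 266, 297, 104 and 64 in the same order. Levels below are log2 of the spot signal relative to that percentile of each array, so a change in total RNA would not show in them. The 6 spike-in controls, RNA of known amount, were 1.37-fold brighter in LB1, while the median tested probe was 3.39-fold dimmer, or 4.66-fold dimmer when set against the spike-ins. Scaled to the spike-ins, a setting chosen after seeing the data, 0 of the 92 unsaturated subunit probes described below had a difference above 0, and they ran from -4.94 to -0.33. Higher and lower therefore mean relative to the rest of the array. In whole liver, fewer cells of a type and less RNA per cell cannot be told apart. A call is an adjusted p under 0.05 by limma with Benjamini-Hochberg adjustment over 22974 tested probes, of which 19.2% were called higher and 13.2% lower.

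Of the 9 hepatocyte marker genes tested, 6 were saturated on at least 1 array. Alb and Apoa1 were called higher and Cps1 lower, all 3 of them saturated, and after quantile normalization 0 were called higher and 2 lower. Over all tested probes 19.2% were called higher and 13.2% lower, the background to this list and the next. Of 12 mesothelium markers listed, 10 were tested, and Wt1 and Upk1b were too dim. Of the 6 well above background on all 4 arrays, 5 were called higher, and 4 after quantile normalization, among them Msln at 6.04, Krt7 at 4.69 and Igfbp5 at 4.39. The summed level of the 10 (log2) was 7.39 and 7.63 in control and 8.46 and 8.88 in LB1, and most of it came from Krt8 and Krt18, keratins that hepatocytes also make. Without them it was 0.93 and -1.02 in control and 4.09 and 5.76 in LB1. The part of these cells in the results below was not tested.

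LB1 minus control differences of the subunit genes were highest in complex IV and lowest in complex II. Complexes I and V held genes called in both directions, as did the array as a whole. Of the 115 subunit probes 106 were tested, and 9 were not, since they were well above background on both arrays of neither group. By limma with Benjamini-Hochberg adjustment 38 subunit probes were called higher in LB1, 12 were called lower and 56 did not pass. The shares over all tested probes, 19.2% and 13.2%, are the background to these counts. The groups did not overlap at 80 of the 106 tested subunit probes, called or not, so a lack of overlap alone sets no probe apart. The share over all tested probes is not given here, so this count shows nothing particular to the subunits. On 14 of the 106 subunit probes the scanner was saturated on at least 1 array, and these are kept apart. Of the 11 saturated on control arrays alone, 7 had no saturated pixel on an LB1 array, and for these the LB1 minus control difference is an upper limit. The other 4 had some, so their difference has no bound.

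Of the 92 subunit probes saturated on no array, 27 (24 genes) were called higher, 12 (9 genes) lower and 53 neither. The background was 18.7% higher and 13.3% lower over 22705 tested probes saturated on no array, so the subunit share called lower was close to it. Most of the higher calls were lost after quantile normalization or array median scaling. The lower calls were kept, as nearly all were over the whole array under these 2 scalings. After quantile normalization 4 of the 27 were still called higher, for Ndufa5, Ndufa8, Ndufb7 and Cox6a2, where the background was 10.8% higher and 17.3% lower. All 12 lower calls were also made after quantile normalization, after normexp background correction and after scaling to the array median. Only Ndufb7 and Cox6a2 were called higher in each of these settings, and Cox6a2 was faint. Normexp kept 19 of the 27 higher calls and array median scaling 3. Over all unsaturated probes, quantile normalization kept 2446 of 4249 higher and 2939 of 3020 lower calls. Array median scaling kept 1464 and 3020 of these, and normexp 3937 and 1840. The background was 49.4% higher and 20.2% lower after normexp, and 6.98% higher and 31.3% lower with the array median. The counts that follow, with 1 array left out, are over all 106 tested subunit probes, saturated ones included. With all 4 arrays 38 of these were called higher and 12 lower. Without control replicate 1 or without control replicate 2, limma called 0 subunit probes in either direction. At an unadjusted p under 0.05 it then found 26 higher and 10 lower, or 26 higher and 8 lower. Without LB1 replicate 2 it called 28 higher and 6 lower.

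**Figure D1:**
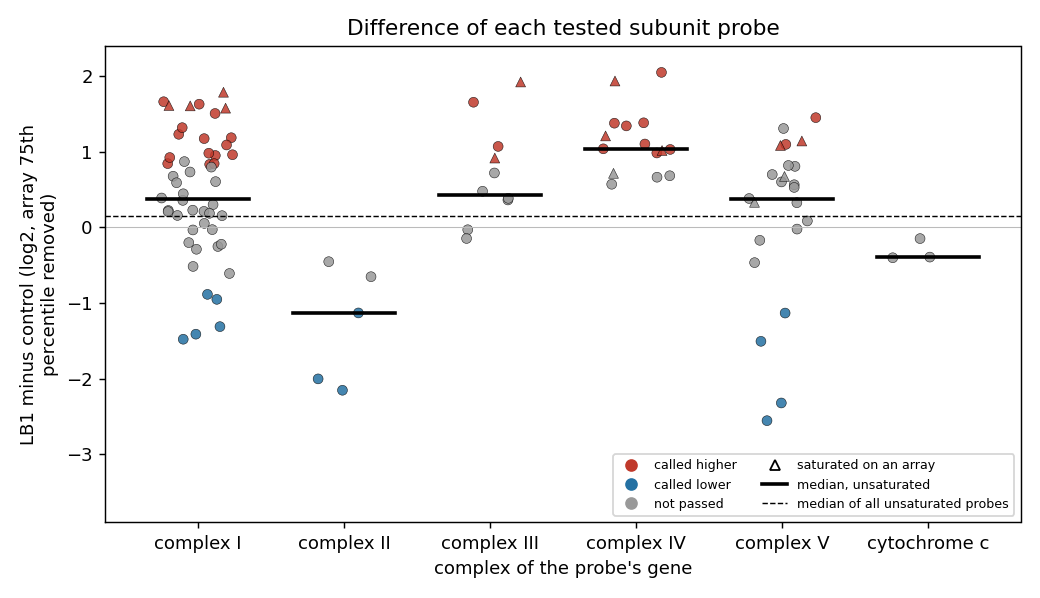
LB1 minus control difference (log2, y axis) of each tested subunit probe by complex (x axis); circles are probes saturated on no array, triangles probes saturated on at least 1, colours give the limma call, black bars the median of the unsaturated probes and the dashed line the median of all unsaturated tested probes (0.15). All 11 unsaturated complex IV probes lie above the dashed line and all 5 complex II probes below 0, while complexes I and V hold probes called in both directions.

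Relative to the median of all unsaturated tested probes (0.15), the median difference was 0.22 for complex I (46 probes, spread between arrays 0.076 SD) and -1.28 for complex II (5 probes, 0.17 SD). It was 0.28 for complex III (8 probes, 0.10 SD), 0.89 for complex IV (11 probes, 0.32 SD) and 0.23 for complex V (19 probes, 0.14 SD). Each slide held 1 control and 1 LB1 array. The medians within slide 1 and slide 2 were 0.20 and 0.20 for complex I, -0.99 and -1.57 for complex II, 0.31 and 0.19 for complex III, 0.71 and 1.06 for complex IV, and 0.28 and 0.47 for complex V. The low position of complex II was kept under every scaling tried. Those of complexes I, III and V turned below 0 after normexp (-0.45, -0.40 and -0.48), where complex IV was at 0.072. Complex V was also below 0 after cyclic loess (-0.10).

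Complex II had the lowest LB1 minus control differences: 3 of its 5 probes were called lower and none higher, against 13.3% and 18.7% of all unsaturated probes. Sdha encodes the flavoprotein that oxidises succinate. Its probe at transcript position 1512 (mm9 chr13:74465756-74465815) read 3.45 and 3.49 on the control arrays and 1.81 and 0.82 on the LB1 arrays. Its probe at 2356 (chr13:74460146-74460205) read 4.14 and 4.37 against 2.69 and 1.82. On both Sdha probes each LB1 array lay more than 1 log2 unit below each control array. The differences were -2.15 (SE 0.37, adjusted p = 0.024) and -2.00 (SE 0.35, adjusted p = 0.024) by limma.

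Sdhb encodes the iron-sulfur subunit that hands the electrons on. Its probe read 5.81 and 6.02 on the control arrays and 5.01 and 4.56 on the LB1 arrays, without overlap, a difference of -1.13 (SE 0.26, adjusted p = 0.033, limma). Sdhc and Sdhd encode the membrane anchors that bind ubiquinone. Sdhc read 4.24 and 4.54 against 3.97 and 3.91, and Sdhd 6.28 and 6.26 against 5.93 and 5.31. Both LB1 arrays were below both control arrays for either gene, but the differences of -0.45 (SE 0.23, limma adjusted p = 0.17) and -0.65 (SE 0.29, limma adjusted p = 0.13) did not pass.

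**Figure D2:**
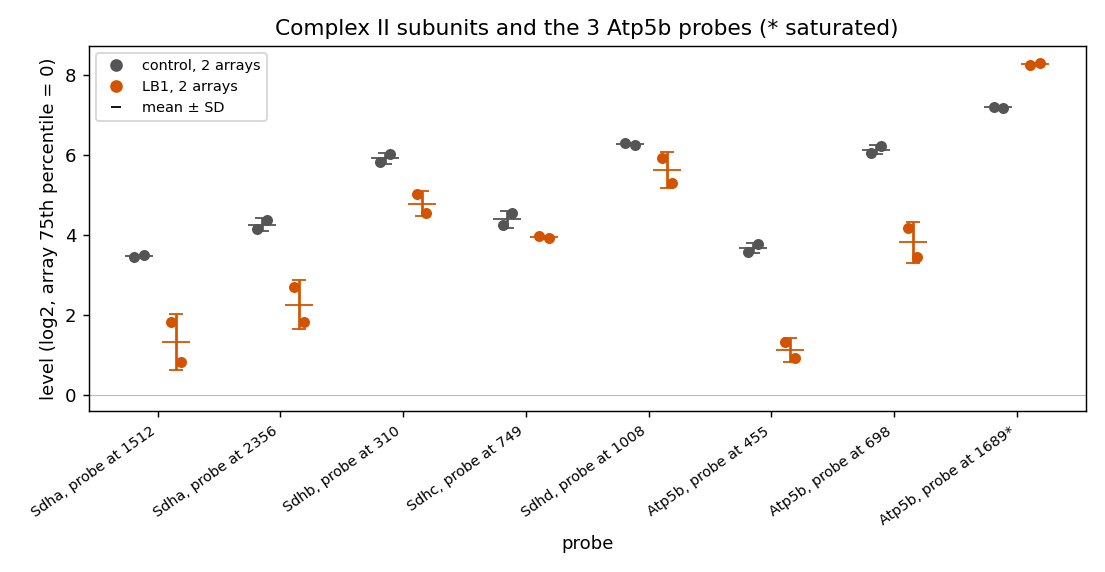
Level (log2, array 75th percentile = 0) of each complex II probe and of the 3 Atp5b probes on the 2 control and 2 LB1 arrays, with group means ± SD; levels are to be compared between groups within a probe, not between probes. Sdha, Sdhb and the Atp5b probes at 455 and 698 are lower on both LB1 arrays, and the Atp5b probe at 1689, saturated on both control arrays, reads higher there.

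Complex I is the largest complex, with core subunits that hold the flavin and the iron-sulfur clusters and supernumerary ones around them. The core and the supernumerary subunits had different counts: 0 of 7 unsaturated core probes were called higher and 3 lower, against 15 of 39 supernumerary probes higher and 2 lower. After quantile normalization these were 0 and 3 of the core probes and 3 and 2 of the supernumerary ones. Of all unsaturated probes 18.7% were called higher and 13.3% lower, and 10.8% and 17.3% after quantile normalization. The test of that difference was not run. The 7 core genes had a median of -0.38 relative to all probes and the supernumerary probes 0.29.

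Ndufv2, of the NADH-oxidising module, and Ndufs1, which carries iron-sulfur clusters, were among the core calls and were named after their values were seen. Ndufv2 read 3.89 and 3.92 on the control arrays and 3.18 and 2.72 on the LB1 arrays, a difference of -0.95 (SE 0.25, adjusted p = 0.044, limma). Ndufs1 read 5.34 and 5.63 against 4.66 and 4.54, a difference of -0.89 (SE 0.23, adjusted p = 0.042, limma). The groups did not overlap in either gene. With the slide as a block their limma adjusted p were 0.055 and 0.060, past the threshold no longer. Ndufs7 and Ndufv1, core subunits that did not pass, differed by 0.80 and 0.23.

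The lower supernumerary genes were Ndufb5 and Ndufa10. Ndufb5 read 2.44 and 2.79 on the control arrays and 1.52 and 0.89 on the LB1 arrays, a difference of -1.41 (SE 0.31, adjusted p = 0.031, limma). Ndufa10 read 3.90 and 4.15 against 2.92 and 2.51, a difference of -1.31 (SE 0.26, adjusted p = 0.026, limma). In neither gene did the groups overlap.

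The higher supernumerary genes were led by Ndufb7, Ndufa5 and Ndufa2. Ndufb7 read 6.10 and 6.35 on the control arrays and 7.56 and 8.22 on the LB1 arrays, a difference of 1.66 (SE 0.30, adjusted p = 0.024, limma) that was 1.01 after quantile normalization (adjusted p = 0.039). Ndufa5 read 6.17 and 6.28 against 7.46 and 8.25, a difference of 1.63 (SE 0.33, adjusted p = 0.027, limma) and 0.98 after quantile normalization. Ndufa2 read 5.65 and 5.85 against 6.88 and 7.63, a difference of 1.51 (SE 0.32, adjusted p = 0.030, limma). After quantile normalization Ndufa2 was at 1.04 and missed the threshold (limma adjusted p = 0.052). In all 3 genes both LB1 arrays lay above both control arrays, and LB1 replicate 2 was the higher.

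Complex III had 2 of 8 unsaturated probes called higher and 0 lower by limma, and 0 in either direction after quantile normalization. For all unsaturated probes the shares were 18.7% and 13.3%, and 10.8% and 17.3% after quantile normalization. Uqcr (now Uqcr11), a small subunit, read 7.10 and 7.12 on the control arrays and 8.51 and 9.02 on the LB1 arrays, a difference of 1.66 (SE 0.26, adjusted p = 0.022, limma). On the control arrays 35.9% and 46.9% of its spot's pixels were saturated, and 21.2% on LB1 replicate 1, so its difference has no bound. After quantile normalization its difference was 0.49. Uqcrc1, a core protein of the matrix side, read 5.90 and 6.34 against 6.996 and 7.39 at its downstream probe, a difference of 1.07 (SE 0.28, adjusted p = 0.043, limma). Its upstream probe, at 0.48, did not pass (limma adjusted p = 0.15). Uqcrfs1, the Rieske iron-sulfur protein, and Uqcrc2 had overlapping groups and differences of -0.15 and -0.031.

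Cytochrome c, encoded by Cycs in somatic tissue, did not pass at any of its 3 probes. They differed by -0.15, -0.40 and -0.39 (limma adjusted p = 0.61, 0.21 and 0.21). On each probe both LB1 arrays lay below both control arrays, though a lack of overlap was common among subunit probes. The probes at 1019 and 1039 overlap along the transcript, so these are not independent readings.

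Complex IV had the highest LB1 minus control differences: 8 of 11 unsaturated probes (7 genes) were called higher and 0 lower. Shares over all unsaturated probes were 18.7% higher and 13.3% lower, and 10.8% and 17.3% after quantile normalization. After quantile normalization 1 of them, for Cox6a2, was called, and the median of complex IV relative to all probes was then 0.70. Several of its subunits exist as isoforms of different tissues, and these are plotted side by side by array. Cox6a2, the isoform of heart and skeletal muscle, read -4.11 and -3.99 on the control arrays and -1.99 and -2.01 on the LB1 arrays (mm9 chr7:135349160-135349219). The difference was 2.05 (SE 0.21, adjusted p = 0.020, limma), and 1.58 after quantile normalization (limma adjusted p = 0.021). Its signal was faint, at 23.7 and 26.1 in control and 36.9 and 20.1 in LB1. Its control levels lay below the faintest level well above background on the LB1 arrays (-3.64 and -3.34). Cox7b2 and Cox8c, well above background on no array, also read higher in LB1. Within slide 1 and slide 2 they differed by 1.71 and 2.05, and by 1.72 and 2.04. How much of the Cox6a2 difference comes from the scaling of faint signals was not tested. Cox7a1, the other muscle isoform called, read 0.94 and 1.39 against 2.13 and 2.96, a difference of 1.38 (SE 0.36, adjusted p = 0.043, limma) that was 1.31 after quantile normalization (limma adjusted p = 0.051).

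Striated muscle markers were measured beside these isoforms. Of the 15 genes listed 7 were tested, and 3 of these were well above background on all 4 arrays. These 3 were called higher, with Myl7 at 5.65, Myl3 at 2.42 and Tnnc1 at 0.87, and Myl7 and Myl3 also after quantile normalization. Among all tested probes 19.2% were called higher. Acta1 was well above background on both LB1 arrays and neither control array. It was at least 6.86-fold higher in LB1, set against the faintest signal well above background. It entered the test through the LB1 arrays alone, so its p-value is not given. Myh7 and Myh1, each above background on 3 of the 4 arrays, were called higher, but not after quantile normalization. Actc1, the remaining gene tested, differed by 0.84 and did not pass (limma adjusted p = 0.31). The summed level of the list was 0.38 and -0.83 (log2) on the control arrays and 2.48 and 3.37 on the LB1 arrays. The defining markers Ckm, Mb, Tnnt2, Tnni3, Myh6, Myl2, Myh4 and Tnnt3 were well above background on both arrays of neither group. Their part in the Cox6a2 and Cox7a1 readings was not tested.

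Cox7a2, the isoform usual in liver, was called higher too. It differed by 1.03 and 0.98 at its 2 probes, which overlap along the transcript (limma adjusted p = 0.030 and 0.032), and by 0.61 at each after quantile normalization, where neither passed. Cox7a2l, a related protein of supercomplexes, differed by 0.66 and did not pass (limma adjusted p = 0.090). Cox6b1 and the testis isoform Cox6b2 differed by 0.57 and 0.68 and did not pass. Of the testis markers, Prm1 was called higher at 2.11 and Prm2 and Tnp1 did not pass, while Ldhc was not tested as too dim. The summed level of these 4 was 0.56 and -0.56 (log2) in control and 1.86 and 2.13 in LB1, and their part in the Cox6b2 reading was not tested. Cox4i2 and Cox8b were well above background on 1 LB1 array each, and Cox7b2 and Cox8c on no array. Ndufa4, now counted as a complex IV subunit, differed by 0.73 and did not pass (limma adjusted p = 0.057).

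**Figure D3:**
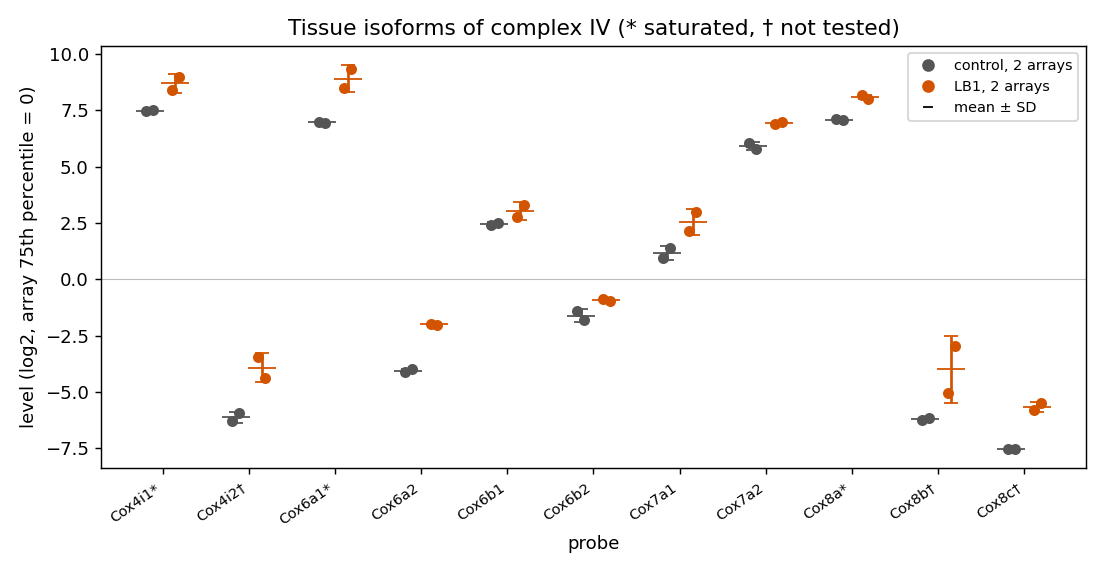
Level (log2, array 75th percentile = 0) of the paired tissue isoforms of complex IV on the 2 control and 2 LB1 arrays, with group means ± SD, 1 probe a gene; levels are to be compared between groups within a probe. Cox6a2 and Cox7a1 read higher on both LB1 arrays; Cox4i1 and Cox8a were saturated on 1 control array and Cox6a1 on all 4 arrays, and Cox4i2, Cox8b and Cox8c were not tested.

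Cox5b, a subunit on the matrix side, read 7.25 and 7.43 on the control arrays and 8.37 and 9.07 on the LB1 arrays, a difference of 1.38 (SE 0.31, adjusted p = 0.032, limma). On the control arrays 11.8% and 39.1% of its pixels were saturated, and after quantile normalization the difference was -0.034. The other complex IV genes called were Cox6c at 1.103, Cox7b at 1.04 and Cox7c at 1.34, named after their values were seen. Over all complexes, 9 of the 92 unsaturated subunit probes had some saturated pixels, and 5 of these were called higher (Ndufb11, Uqcr, Cox5b, Cox6c and Atp5e). Their quantile-normalized differences ran from -0.14 to 0.49, and none was called. Without the probes that have any saturated pixel, a setting chosen after seeing the data, 22 subunit probes were called higher and 12 lower.

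**Figure D4:**
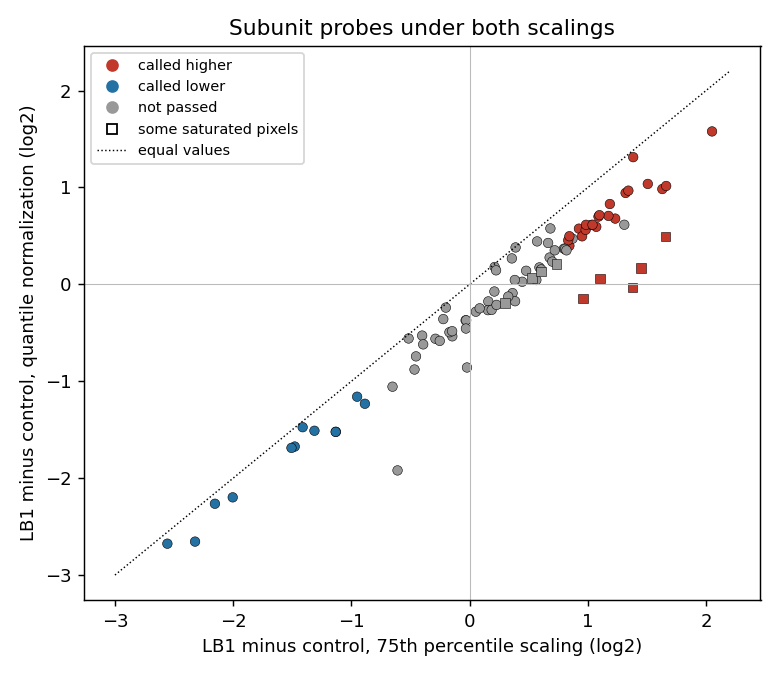
LB1 minus control difference of each of the 92 unsaturated tested subunit probes after 75th percentile scaling (x axis, log2) and after quantile normalization (y axis, log2); colours give the call on the x axis, squares are the 9 probes with some saturated pixels and the dotted line marks equal values. The 12 probes called lower stay well below 0 on both axes, and the 5 squares called higher fall to between -0.14 and 0.49 on the y axis.

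Of the 14 saturated subunit probes, 11 were called higher, none lower, and 2 (Uqcrq and Cox6a1) were saturated on all 4 arrays, so no fold is given for them. Ndufb9 was saturated on both control arrays and 1 LB1 array, so its difference of 1.79 has no bound on either side. Cox4i1 and Cox8a, the isoforms common to most tissues, were saturated on control replicate 2 alone, at 1.21 and 1.02. After quantile normalization the 14 ranged from -0.55 to 0.85 and 1 was called. The mitochondrially encoded subunits are represented by CYTB and COX2, and both probes were saturated too; the file places the COX2 probe on chromosome 1.

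In complex V, 2 of 19 unsaturated probes were called higher and 4 lower, and 0 and 5 after quantile normalization. The shares over all unsaturated probes were 18.7% and 13.3%, and 10.8% and 17.3% after quantile normalization. The lower calls were the beta subunit Atp5b and Atp5f1 (now Atp5pb), the b subunit of the peripheral stalk. The Atp5b probe at 455 read 3.58 and 3.77 on the control arrays and 1.33 and 0.91 on the LB1 arrays, a difference of -2.56 (SE 0.25, adjusted p = 0.020, limma). The probe at 698 read 6.05 and 6.21 against 4.17 and 3.44, a difference of -2.32 (SE 0.31, adjusted p = 0.021, limma). These were the lowest differences of any subunit probe tested. They were -2.26 and -2.86 within slide 1 and slide 2 for the first, and -1.88 and -2.77 for the second.

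The third Atp5b probe, at 1689, read 7.20 and 7.18 on the control arrays and 8.25 and 8.30 on the LB1 arrays. It was called higher at 1.08, but it was saturated on both control arrays, so that value is an upper limit and its direction is not settled. After quantile normalization it was at -0.00096. Of 22 subunit genes with several tested probes, Atp5b was the only one with calls in both directions.

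Atp5f1 had a probe at 231 that read 4.11 and 3.56 on the control arrays and 2.52 and 2.13 on the LB1 arrays, a difference of -1.51 (SE 0.30, adjusted p = 0.026, limma). Its probe at 1306 differed by -1.13 and was called lower too, and a dim probe at 211 had overlapping groups. Atp5e, the epsilon subunit, read 7.24 and 7.22 against 8.48 and 8.88, a difference of 1.45 (SE 0.24, adjusted p = 0.023, limma) that was 0.17 after quantile normalization, with 19.0% and 16.7% of its control pixels saturated. Atp5k, the e subunit of the membrane part, read 5.07 and 5.30 against 5.98 and 6.59, a difference of 1.098 (SE 0.29, adjusted p = 0.044, limma). The ring subunits Atp5g1 and Atp5g2 did not pass at any probe, and that of Atp5g3 was saturated.

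In most subunit pairs the probe further downstream in a transcript read higher in LB1, relative to control, than the upstream one of the same record. This held for 8 of 9 unsaturated subunit pairs at least 100 bases apart, and for 10 of 12 with saturated probes included. Over all genes it held for 56.6% of 3948 unsaturated pairs. After quantile normalization and after normexp the subunit count was again 8 of 9, and the share over all pairs was 59.8% and 39.6%. The downstream probe was mostly also the brighter one. In the unsaturated subunit pairs it was brighter by a median of 0.85 and 0.88 (log2) in control and 1.28 and 1.76 in LB1. It was dimmer in Cycs and Ndufab1, and of these only Cycs went the other way. Position and brightness cannot be told apart in these pairs. The pairs were not tested, and probes of a gene share their animals and arrays.

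For Ndufa12 the probe at 147 read 2.13 and 1.82 on the control arrays and 1.69 and 1.22 on the LB1 arrays, and the probe at 429 read 5.39 and 5.57 against 5.99 and 6.32. The differences were -0.52 and 0.68, and neither passed (limma adjusted p = 0.19 and 0.082). Ndufa7 differed by 0.05 at its upstream probe and 0.95 at its downstream one, and Ndufc1 by 0.21 and 0.83. Sdha, at -2.15 and -2.00, was low at both of its probes, which start at 1512 and 2356, so the part upstream of these was not read. The unsaturated exception was Cycs, at -0.15 and -0.39. RNA integrity is not given in the sources used here, and its part in these readings was not tested.

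**Figure D5:**
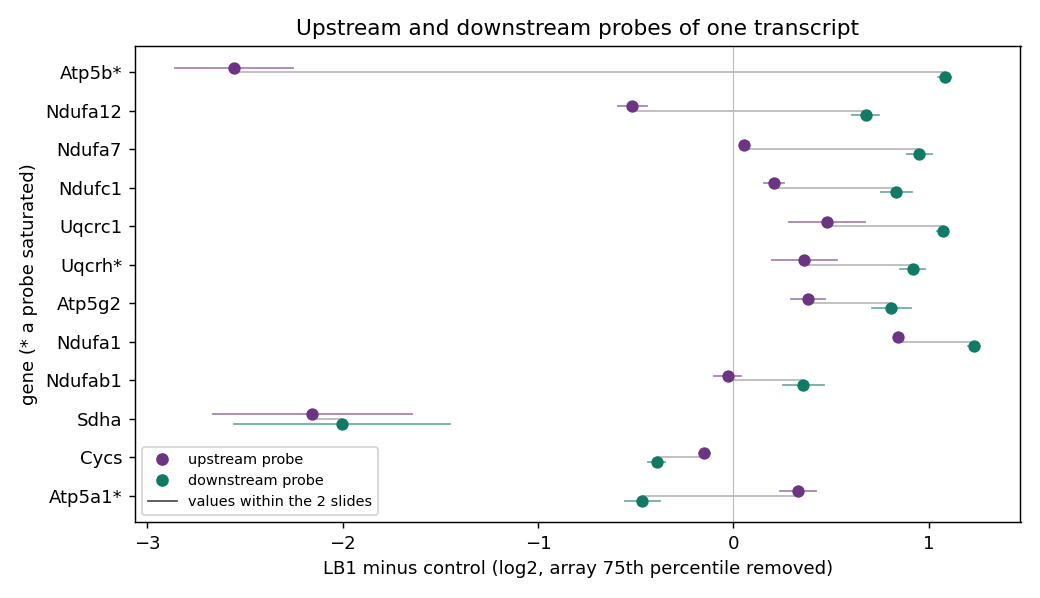
LB1 minus control difference (log2, x axis) of the upstream and the downstream probe of each subunit transcript with probes at least 100 bases apart (y axis, gene); dots are the group differences, coloured lines join the values within the 2 slides and asterisks mark pairs with a saturated probe. The downstream dot lies to the right in 10 of the 12 genes, with Cycs and Atp5a1 the exceptions, and the widest gap is at Atp5b, from -2.56 to 1.08.

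Bright probes carried most of the higher calls. Of 54 unsaturated subunit probes with a control mean over 5, 21 were called higher (38.9%) and 4 lower (7.41%), against 22.1% and 8.95% of the 927 probes of that brightness on the array. Of the 38 dimmer subunit probes, 6 were called higher and 8 lower, against 18.6% and 13.5% of 21778. Across the 92 subunit probes the difference and the control level correlated at a Spearman rho of 0.29, and of 0.096 after quantile normalization. Over all 22559 probes it was -0.18. These are descriptions across probes that share arrays and scanner range.

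Enzymes of the citric acid cycle, which supplies NADH and succinate to the chain, were lower at 8 of 17 genes and higher at 1 (Mdh2, saturated). Idh3a and Idh3b, subunits of isocitrate dehydrogenase, differed by -2.19 and -1.75 (limma adjusted p = 0.020 and 0.023). Dld, shared by the pyruvate and 2-oxoglutarate dehydrogenase complexes, and Pdhb differed by -1.69 and -1.47 (limma adjusted p = 0.022 and 0.023). Idh3g and Pdha1, named after their values were seen, differed by 0.60 and 0.38 and did not pass (limma adjusted p = 0.087 and 0.24). The background was 19.2% higher and 13.2% lower, and the list's median was -0.75 against 0.29 over all tested genes. After quantile normalization 8 were called lower and 0 higher, with medians of -0.80 and 0.050.

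Of 37 assembly factors and other chain proteins tested, 9 were called higher and 5 lower, with a median of -0.07 against 0.29 over all tested genes, and 4 higher and 10 lower after quantile normalization. The background was 19.2% and 13.2%. Tmem126b, a complex I assembly factor, was lower at -1.42, and Etfa, which feeds electrons from fatty acid oxidation to ubiquinone, at -1.30. Etfb, in the same list, was called higher at 1.92 on a saturated probe. Uqcc3, needed for complex III, was higher at 1.53, and Cox16, needed for complex IV, at 1.29. Among the members that are not subunits, 1 of 8 probes was called, an Atp5s probe at -0.86.

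Of 15 regulators of mitochondrial genes tested, 2 were called higher and 2 lower, close to the background of 19.2% and 13.2%. Nrf1, a transcription factor for many subunit genes, differed by 0.997 and the coactivator Ppargc1a by 0.86 (limma adjusted p = 0.029 and 0.045). Gabpb1, a subunit of the ETS-family factor NRF-2, was well above background on neither LB1 array and at least 2.22-fold lower there. It entered the test through the control arrays alone, so its p-value is not given. Polg, the mitochondrial DNA polymerase, differed by -0.95 (limma adjusted p = 0.035).

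NRF1, NRF-2 and YY1 bind known motifs in promoters of subunit genes, and these were searched as a description of the members. In the RefSeq table of GRCm38.p6, 67 of the 81 subunit genes matched, and the 250 bases before each start were read on both strands. The NRF1 core CGCATGCG was in 8 of 67 (11.9%) against 1.75% of 27025 genes, and the ETS core CCGGAAG in 12 (17.9%) against 7.83%. The YY1 motif AAGATGGC was in 1 (1.49%) against 1.83%. Of matched genes called higher on unsaturated probes, 2 and 3 of 21 held the NRF1 and ETS letters, and of those called lower 0 and 0 of 7. The counts were 1 and 2 of 7 genes called on saturated probes alone, 5 and 7 of 30 that did not pass, and 0 and 0 of 2 not tested. No test was run on this split. The NRF1 form searched first was longer and was then shortened to the core given above. The promoters of a gene called higher and a gene called lower are given, each 5′ to 3′ up to the base before the start, with the ETS letters in capitals. They are chr8:83566508-83566757 for Ndufb7 and chr4:140961021-140961270 for Sdhb, both on the plus strand of GRCm38.p6. Sdhb held none of the 3 motifs in these exact letters, and near matches were not searched.
Ndufb7: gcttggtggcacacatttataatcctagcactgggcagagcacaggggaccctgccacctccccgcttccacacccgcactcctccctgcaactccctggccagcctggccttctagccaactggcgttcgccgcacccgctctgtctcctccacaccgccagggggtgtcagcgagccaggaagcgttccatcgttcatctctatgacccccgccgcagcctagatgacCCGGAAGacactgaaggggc
Sdhb: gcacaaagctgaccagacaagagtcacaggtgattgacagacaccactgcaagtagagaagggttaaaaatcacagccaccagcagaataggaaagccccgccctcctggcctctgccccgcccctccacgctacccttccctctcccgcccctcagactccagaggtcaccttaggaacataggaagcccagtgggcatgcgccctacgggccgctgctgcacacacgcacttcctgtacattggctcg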

How the data were processed

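The deposited scanner files hold linear intensity per spot, written by Feature Extraction 10.5.1.1 per the file headers. The series text names another version. Per the file headers the processed signal was background-subtracted and detrended within each array. The deposited series table holds the mean spot intensity as whole numbers. Control spots and outlier spots were left out, values were put on the log2 scale relative to the array's 75th percentile, and replicate spots were averaged. A probe entered the test where both arrays of either group were well above background. The test was limma 3.58.1 (R 4.3.3; lmFit, eBayes), with p-values adjusted by Benjamini-Hochberg over all of them. Differences are LB1 minus control, and coordinates of probes are on mm9, per the file headers. The script was tested on simulated data. A saturated probe is one the scanner software marked on any array.

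The labels do not state separate cages or litters. P-values of limma rest on the spread between 2 arrays a group, drawn toward a spread pooled over all probes. The number of arrays limits the precision. The smallest exact 2-sided p of a single value is 0.333 with 2 arrays against 2, so no such test was run. Members, lists and the rule for named genes were chosen with earlier results of these data known. The rule took, for each complex, up to 3 unsaturated genes each way with the largest called difference and groups that did not overlap, the tissue isoforms, complex II, genes with opposite calls, up to 3 saturated examples and up to 4 members of each other list. One gene that the rule took is not reported here. Alternatives were other scalings and background corrections, filters, fits, the methods' t-test, the series table, the slide as a block and each array left out.

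Of the other cell type lists, called higher and lower were 1 and 0 of 7 Kupffer cell and leukocyte genes, 0 and 0 of 4 endothelial, 2 and 0 of 2 erythroid, 0 and 1 of 3 pancreatic, and 0 and 0 of 1 adipocyte gene. The shares over all tested probes were 19.2% and 13.2%.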

Additional observations from a re-analysis of the deposited data

How the results depend on the processing

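With 38 subunit probes called higher and 12 lower of 7439 calls over all probes, quantile normalization gave 5 higher, the array median 6 higher and 19 lower, cyclic loess 8 higher, normexp 31 lower of 15996 calls, and the rounded values of the whole series gave 20 lower of 14446. No filter gave 20683 calls. The methods' t-test with its fold minimum gave 21 higher of 4109 calls. After Benjamini-Hochberg the t-test gave 0, 0 and 0, where its unadjusted p was under 0.05 at 39 higher and 9 lower subunit probes. Leaving out probes with any saturated pixel, chosen after seeing the data, gave 22 higher. Leaving out 1 array gave 0 to 49 higher, 0 to 14 lower and 1 to 11029 calls. Complex medians relative to all probes, for I, II, III, IV and V in that order, were -0.45, -2.11, -0.40, 0.072 and -0.48 with normexp, 0.097, -1.54, 0.042, 0.54 and -0.10 with cyclic loess, -0.38, -2.11, -0.54, 0.37 and -0.59 with no filter, and -0.25, -1.87, -0.15, 0.33 and -0.22 with the series values. Complex III was 0.11 with quantile normalization, and with the brightest probe per gene complexes I and III were 0.36 and 0.44. Leaving out 1 array gave 0.12 to 0.29, -1.46 to -1.10, 0.24 to 0.38, 0.78 to 1.003 and 0.16 to 0.50. Of the subunit probes called higher, 6 turned below 0 with quantile normalization, 4 of them saturated: among the probes named by the rule Cox5b (-0.034), Cox4i1 (-0.33) and the Atp5b probe at 1689 (-0.00096), and besides them Ndufb11 (-0.14), Uqcrh (-0.32) and Atp5g3 (-0.33). The direction also turned for Cox6b1 (-0.065), which was not called, with the array median. The cause was not tested, except that fewer arrays were fitted where one was left out; there the lone array was assumed to vary like the other group.

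The replicate numbers are those of slide and scan, per the file headers, and same-numbered arrays deviated together at a correlation of 0.15 over 22958 probes; with 2 pairs this does not show pairing. With the replicate block 34 subunit probes were called higher and 10 lower of 6959 calls, and all 36 probes named by the rule stayed on their side of the threshold. Saturation limits bright probes, and the dimmer LB1 arrays limit faint ones.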
